A study of Mus musculus with 16 samples.

Results

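The 9 genes described here encode transcription factors that drive cortical progenitors towards the neuronal fate: the proneural factors Neurog1 and Neurog2, the NeuroD factors Neurod1, Neurod2 and Neurod6, the T-box factors Eomes and Tbr1, the zinc finger factor Insm1 and the helix-loop-helix factor Nhlh1. They were chosen by name, out of the 21887 genes that RefSeq lists as protein-coding on GRCm38, and each was examined over its annotated span with 10 kb on either side. All 9 were found in the annotation, and their windows add up to 223.8 kb. The cells were Setd5+/- neural stem cells, heterozygous for the chromatin gene Setd5 as the genotype symbol gives it, and wild-type neural stem cells. Both were grown as neurospheres from telencephalic cortex taken from E14.5 embryos (mid-gestation), then plated on Matrigel before fixation. A further group consisted of wild-type cells in which V5-tagged SETD5 was precipitated, with no V5 library from untagged cells. How many embryos or cultures stand behind each library is not given in the sources used here.

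Neurog2 and Neurog1 are basic helix-loop-helix activators that start neurogenesis in cortical progenitors and switch on Notch ligands. Neurod1, Neurod2, Neurod6 and Nhlh1 act after them in newborn neurons, Eomes (also called TBR2) and Insm1 mark and promote the basal or intermediate progenitor, and Tbr1 specifies early-born, deep-layer neurons. In progenitors, genes of this kind are commonly held by Polycomb, which deposits H3K27me3. When H3K4me3, the mark of active or poised promoters, lies on the same region, the gene is called bivalent and is regarded as silent but poised.

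Chromatin immunoprecipitation with sequencing (ChIP-seq) was done for 6 histone marks in each genotype and for SETD5-V5 in wild type, with 1 library per group. The deposited data are lists of enriched regions, called islands, with a whole number of reads per island. Reads inside islands ran from 1019278 to 5093126 per library, and depth outside islands is unknown. For H3K27me3 they came to 1398086 in Setd5+/- cells and 2297833 in wild type. Read counts at single genes below are not scaled for this difference. With 1 library per group no difference between genotypes was tested, and every difference below compares 2 libraries. A gene without an island had no region above the authors' calling threshold, which does not show that the mark is absent. The 10 genes taken as markers of neural stem cells and radial glia (among them Sox2, Nes and Pax6) were all in the active state defined below in both genotypes. Of 8 genes of postmitotic neurons, 1 was active in Setd5+/- and 2 in wild type. The count of active genes was 1 of 6 interneuron genes in Setd5+/- and 0 in wild type. It was 2 of 6 oligodendrocyte, 3 of 5 astrocyte, 1 of 5 endothelial or mesenchymal and 0 of 5 microglial or blood genes in each genotype. The 3 astrocyte genes were not the same, with Aqp4 active in Setd5+/- cells only and Aldh1l1 in wild type only. Chromosomes 1, 4 and 15 held a larger share of island reads in Setd5+/- cells for all 6 marks. For H3K27me3, 15.97% of island reads lay on chromosome 1 in Setd5+/- cells and 5.06% in wild type. Nhlh1 is the only one of the 9 genes on any of these chromosomes.

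The promoters of 8 of the 9 genes are in the RefSeq table of GRCm38.p6, each running from 250 bases before to 50 bases after the annotated start. Those of Neurog1, Neurod1, Eomes, Tbr1 and Nhlh1 are printed 5′ to 3′, as examples from CpG-rich sequence under H3K27me3 to CpG-poor sequence without it. They were picked with these values known, and the CpG-poor Neurod6 promoter, under H3K27me3 in both genotypes, is not printed. Capitals mark every CpG.
Neurog1 (chr13:56252131-56252430, minus strand): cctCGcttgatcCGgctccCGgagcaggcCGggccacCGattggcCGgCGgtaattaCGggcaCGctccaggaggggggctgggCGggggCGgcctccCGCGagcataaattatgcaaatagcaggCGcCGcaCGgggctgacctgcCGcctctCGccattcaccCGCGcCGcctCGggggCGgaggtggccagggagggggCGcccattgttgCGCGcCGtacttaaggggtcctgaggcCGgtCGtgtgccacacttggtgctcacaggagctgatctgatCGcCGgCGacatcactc
Neurod1 (chr2:79456587-79456886, minus strand): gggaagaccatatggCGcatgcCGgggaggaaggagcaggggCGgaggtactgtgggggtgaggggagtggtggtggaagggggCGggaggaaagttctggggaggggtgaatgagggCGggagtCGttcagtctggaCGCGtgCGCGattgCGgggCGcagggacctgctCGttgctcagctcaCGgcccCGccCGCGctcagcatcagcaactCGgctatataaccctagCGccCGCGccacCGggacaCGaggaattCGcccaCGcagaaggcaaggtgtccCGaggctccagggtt
Eomes (chr9:118477939-118478238, plus strand): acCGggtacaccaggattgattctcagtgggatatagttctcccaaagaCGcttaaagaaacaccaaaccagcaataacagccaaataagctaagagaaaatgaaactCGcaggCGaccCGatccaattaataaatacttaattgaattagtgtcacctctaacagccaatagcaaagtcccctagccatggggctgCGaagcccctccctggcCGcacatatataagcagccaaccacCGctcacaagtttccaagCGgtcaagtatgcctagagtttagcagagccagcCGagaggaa
Tbr1 (chr2:61804203-61804502, plus strand): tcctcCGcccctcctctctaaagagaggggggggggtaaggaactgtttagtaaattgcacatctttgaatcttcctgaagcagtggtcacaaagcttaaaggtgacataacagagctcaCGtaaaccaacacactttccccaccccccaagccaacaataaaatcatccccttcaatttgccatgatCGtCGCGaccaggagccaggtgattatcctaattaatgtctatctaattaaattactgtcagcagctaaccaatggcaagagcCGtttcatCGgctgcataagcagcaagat
Nhlh1 (chr1:172057547-172057846, minus strand): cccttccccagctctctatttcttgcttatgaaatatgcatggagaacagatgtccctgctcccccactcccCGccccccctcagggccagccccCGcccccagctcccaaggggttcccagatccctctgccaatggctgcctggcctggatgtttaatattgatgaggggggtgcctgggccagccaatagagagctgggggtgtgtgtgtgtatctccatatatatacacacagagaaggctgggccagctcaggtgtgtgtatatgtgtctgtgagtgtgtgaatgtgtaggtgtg

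The Neurog1 promoter held 32 CpG, more than 90.5% of the 32851 promoters in the table, and that of Neurod1 held 26. Neurod2 had 16 CpG, Neurog2 and Eomes had 10 each, and Tbr1 had 7, which is the median of all promoters. Neurod6 had 3 and Nhlh1 had 2. H3K27me3 covered the whole 300 bases at 6 of the 8 promoters in Setd5+/- cells and at 7 of 8 in wild type. The promoter without it in both genotypes was that of Nhlh1, and the one with it in wild type only was that of Tbr1. The CpG-poor Neurod6 promoter was covered in both. H3K4me3 covered the Neurog2 and Eomes promoters in full in both genotypes and none of the other 6. The share of all promoters under either mark is not given here, so these counts cannot be set against it. Over a wider region, within 1 kb of the gene span, 11.9% of all genes had an H3K27me3 island in Setd5+/- cells and 13.5% in wild type. The E-box CANNTG, the general binding motif of helix-loop-helix factors, was found at 6 of the 8 promoters and at 72.3% of all promoters. Its forms CAGCTG and CAGATG, searched on both strands like the other motifs and included in CANNTG, were found at 0 and 2 of the 8, against 16.3% and 17.2% of all promoters. The GC box GGGCGG was found at 6 of 8 and at 35.7% of all, and TATAAA at 0 of 8 and 13.6% of all.

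None of the 9 genes was active, meaning H3K4me3 and H3K27ac islands with no H3K27me3 island within 1 kb of the gene span, in either genotype. Of all protein-coding genes, 39.0% were active in Setd5+/- cells and 40.7% in wild type. Bivalent genes, with H3K4me3 and H3K27me3 islands that overlap there, were Neurog2, Neurod1, Eomes and Insm1 in both genotypes, and Tbr1 in wild type. That makes 4 of 9 in Setd5+/- and 5 of 9 in wild type, beside 3.18% and 4.99% of all genes. Repressed genes, with H3K27me3 and no H3K4me3, were Neurog1, Neurod2 and Neurod6 in both genotypes and Nhlh1 in Setd5+/- cells. The count was 4 of 9 in Setd5+/- and 3 of 9 in wild type, beside 4.98% and 4.56% of all genes. The cultures were measured in bulk, so both marks on the same cells and on different cells cannot be told apart. An H3K27me3 island lay within 1 kb of 8 of the 9 genes in each genotype, beside 11.9% of all genes in Setd5+/- and 13.5% in wild type.

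The state differed between the genotypes at 2 of the 9 genes, Tbr1 and Nhlh1, and at 19.8% of all genes. Tbr1 was in the H3K4me3-only state in Setd5+/- cells (H3K4me3 with neither H3K27ac nor H3K27me3) and bivalent in wild type. Of the 1093 genes bivalent in wild type, 53.2% had some other state in Setd5+/- cells, among them the 24.5% that likewise had H3K4me3 and no H3K27me3. Nhlh1 was repressed in Setd5+/- cells and had neither mark in wild type, as did 4.31% of the genes unmarked in wild type and 18.4% of those on chromosome 1, where Nhlh1 lies. The part of chromosome 1 in the Nhlh1 call was not tested. The bivalent calls were not equally firm. Without the 25% of islands with the lowest read density in each list, Neurog2 was bivalent in wild type only, Insm1 was repressed in both genotypes and Nhlh1 was unmarked in both.

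**Figure D1:**
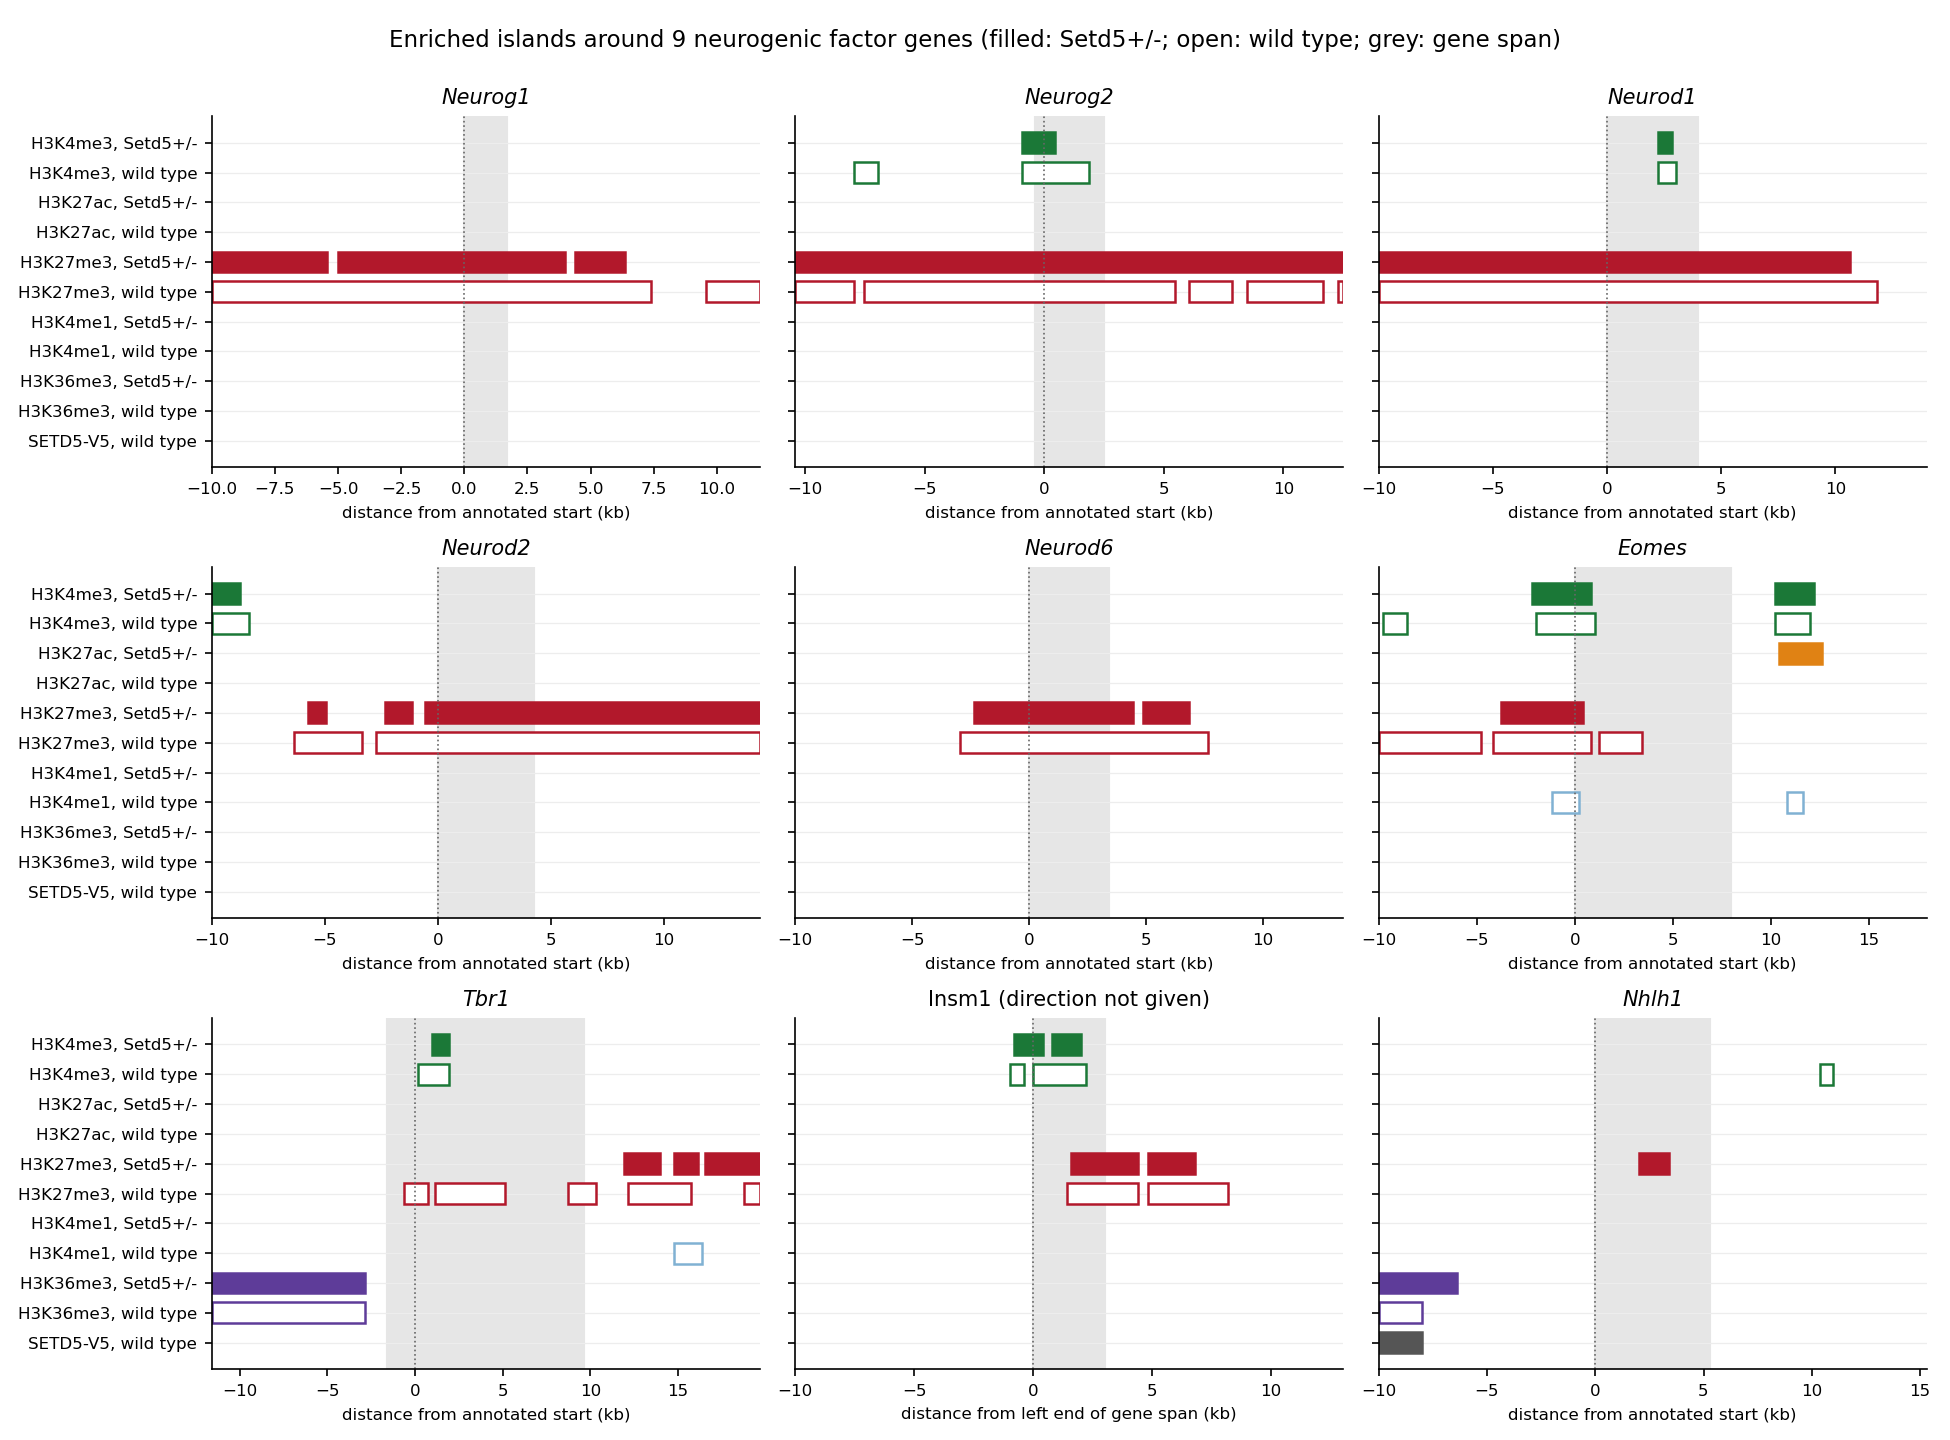
Enriched islands across the 9 windows, with distance from the annotated start in kb on the horizontal axis (from the left end of the span for Insm1, whose direction the tables do not give) and 1 row per mark and genotype. H3K36me2, which had no island in any window, has no row. Filled bars are Setd5+/- islands, open bars wild-type islands, SETD5-V5 is dark grey, and light grey shading is the gene span. H3K27me3 lay over the Tbr1 span in wild type only and in the Nhlh1 window in Setd5+/- only, and over the other 7 genes in both.

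Neurog2 (chromosome 3, 127632733 to 127635636) lay inside a single H3K27me3 island of 26.0 kb with 1170 reads in Setd5+/- cells. In wild type the same stretch held 5 islands of 23.2 kb and 1193 reads in all, the widest of 13 kb with 882 reads over the gene. The island in Setd5+/- cells was wider than 99.8% of that list and filled the whole window, which was so for 11 of the 21887 genes. Per covered kb of the window, H3K27me3 had 45.0 reads in Setd5+/- cells and 53.8 in wild type. The wild-type island over the gene had 67.8, and the single Setd5+/- island gives no separate value for that part. H3K4me3 differed the other way in length. It lay over the Neurog2 start in an island of 1.4 kb with 45 reads in Setd5+/- cells (95% Poisson interval 32.8 to 60.2), and of 2.8 kb with 151 reads in wild type (128 to 177). Counted from the start, with negative values upstream, both islands began at −0.935 kb, and they ended at 0.464 kb in Setd5+/- cells and 1.86 kb in wild type. A second H3K4me3 island, of 47 reads between −7.935 and −6.936 kb, was called in wild type only.

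Neurog1 (chromosome 13, 56250478 to 56252180) had no island of any mark but H3K27me3. The mark lay in 3 islands of 15.8 kb and 578 reads in Setd5+/- cells, and in 2 islands of 19.6 kb and 1232 reads in wild type. The Setd5+/- islands measured 2.0, 9.0 and 4.8 kb, with 58, 352 and 168 reads, and the middle one covered the gene. In wild type an unbroken island of 17.4 kb with 1184 reads covered the gene and nearly the same stretch.

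Neurod1 (chromosome 2, 79452637 to 79456636) had the most H3K27me3 reads of the 9 genes in wild type. A single island of 21.4 kb with 987 reads (926 to 1051) covered it in Setd5+/- cells, and one of 22.4 kb with 2014 reads (1927 to 2104) in wild type. The extent was thus nearly equal and the density, not scaled for library totals, was 46.1 reads per kb in Setd5+/- cells and 89.9 in wild type. Scaled to all H3K27me3 island reads of each library, the log2 ratio of these densities, Setd5+/- over wild type, was −0.25. A short H3K4me3 island lay inside the gene and not at its start, from 2.24 to 2.83 kb downstream in Setd5+/- cells with 63 reads, and from 2.24 to 3.04 kb in wild type with 72 reads. Looked for within 1 kb of the start alone, Neurod1 was repressed and not bivalent in both genotypes.

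Neurod2 (chromosome 11, 98325415 to 98329645) and Neurod6 (chromosome 6, 55677818 to 55681263) had H3K27me3 over the whole span and no H3K4me3 within 1 kb. The Neurod2 window held 16.8 kb of H3K27me3 with 649 reads in Setd5+/- cells and 19.99 kb with 1193 reads in wild type. The Neurod6 window held 8.8 kb with 281 reads in Setd5+/- cells and 10.6 kb with 543 reads in wild type. The Neurod2 domain was split into 3 islands in Setd5+/- cells and 2 in wild type, and the Neurod6 domain into 2 in Setd5+/- cells and 1 in wild type. The only H3K4me3 in the Neurod2 window lay about 9 kb upstream, inside the span of the predicted gene Gm33099, with 86 reads in Setd5+/- cells and 88 in wild type.

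Eomes (chromosome 9, 118478186 to 118486132) combined a shorter H3K27me3 domain with denser H3K4me3 at its start in Setd5+/- cells. H3K27me3 covered 4.2 kb of its window with 157 reads in Setd5+/- cells and 12.4 kb with 725 reads in wild type. An island lay over the start in both genotypes, with 157 reads in 4.2 kb in Setd5+/- cells and 448 in 5.0 kb in wild type. The other 2 wild-type islands, of 10.2 kb farther upstream and of 2.2 kb inside the gene, had no Setd5+/- partner. H3K4me3 over the start measured 3.0 kb in both genotypes, with 342 reads (307 to 380) in Setd5+/- cells and 167 (143 to 194) in wild type. The log2 ratio of reads per kb, Setd5+/- over wild type, was 1.03 for this H3K4me3 island and −1.26 for the H3K27me3 island. Of the islands shared by both genotypes on the 16 autosomes other than 1, 4 and 15, 98.9% had a lower ratio for H3K4me3 and 1.02% had a lower one for H3K27me3.

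The H3K4me3 island 10.2 kb downstream of the Eomes start, beyond the end of the gene, went the other way, with 45.0 reads per kb in Setd5+/- cells and 71.7 in wild type, a log2 ratio of −0.67 that was above 2.42% of shared islands. The same place carried the only H3K27ac island found in any of the 9 windows, 2.2 kb with 31 reads in Setd5+/- cells. It was a weak call, since 0.792% of the H3K27ac islands of that library were less dense. Chromosome 9, where Eomes lies, held 9.27% of all H3K27ac island reads in Setd5+/- cells and 5.26% in wild type, and the part of this in the Eomes island was not tested. Wild type had an H3K4me1 island there with 26 reads, and another with 45 reads over the Eomes start, and Setd5+/- cells had no H3K4me1 in any window.

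Tbr1 (chromosome 2, 61802863 to 61814114) was without H3K27me3 over its whole span in Setd5+/- cells. The nearest H3K27me3 lay 2.29 kb beyond the gene, the first of 3 islands with 37, 40 and 109 reads. In wild type 3 islands touched the span, with 55 reads over the start, 172 reads from 1.15 to 5.15 kb downstream of it, and 38 reads at the far end of the gene. Islands of 98 and 46 reads lay beyond the gene in wild type, so both genotypes had the mark there and the difference lay over the gene itself. H3K4me3 was shorter and denser, 1.0 kb with 87 reads (69.7 to 107) in Setd5+/- cells and 1.8 kb with 117 reads (96.8 to 140) in wild type. It began 0.948 kb downstream of the start in Setd5+/- cells and 0.148 kb downstream in wild type, and ended at the same base. Tbr1 stayed without H3K27me3 in Setd5+/- cells, and with it in wild type, when islands were sought in the span itself or within 1 kb of the start, and without the 25% least dense islands, while the 10 kb flanks held the mark in both. Where 50% of the shorter island had to be shared, each pair of islands taken separately, wild-type Tbr1 had both marks but was not bivalent. Its H3K4me3 island, from 0.148 to 1.947 kb, met an H3K27me3 island that ended at 0.747 kb and the next, which began at 1.15 kb. An H3K36me3 island in the window covered the end of the neighbouring proteasome gene Psmd14 in both genotypes and did not reach Tbr1.

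Insm1 (chromosome 2, 146221997 to 146225020) had short islands of both marks in both genotypes, and its window reaches the end of Cfap61, which had no island there. H3K27me3 measured 4.8 kb with 144 reads in Setd5+/- cells and 6.4 kb with 185 reads in wild type. H3K4me3 measured 2.4 kb with 87 reads in Setd5+/- cells and 2.8 kb with 88 reads in wild type. The marks met over less than 1 kb inside the gene, and when 50% of the shorter island had to be shared Insm1 was no longer bivalent in either genotype.

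Nhlh1 (chromosome 1, 172052292 to 172057596) was the exception among the 9, with no H3K27me3 in its window in wild type. Setd5+/- cells had an H3K27me3 island of 1.4 kb with 31 reads (21.1 to 44.0) inside the gene, and 23.3% of the islands of that list were less dense. An H3K4me3 island of 24 reads beyond the end of the gene was called in wild type only. The upstream flank held the end of an H3K36me3 island in both genotypes and of a SETD5-V5 island of 16 kb with 327 reads, all overlapping the neighbouring gamma-secretase gene Ncstn.

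**Figure D2:**
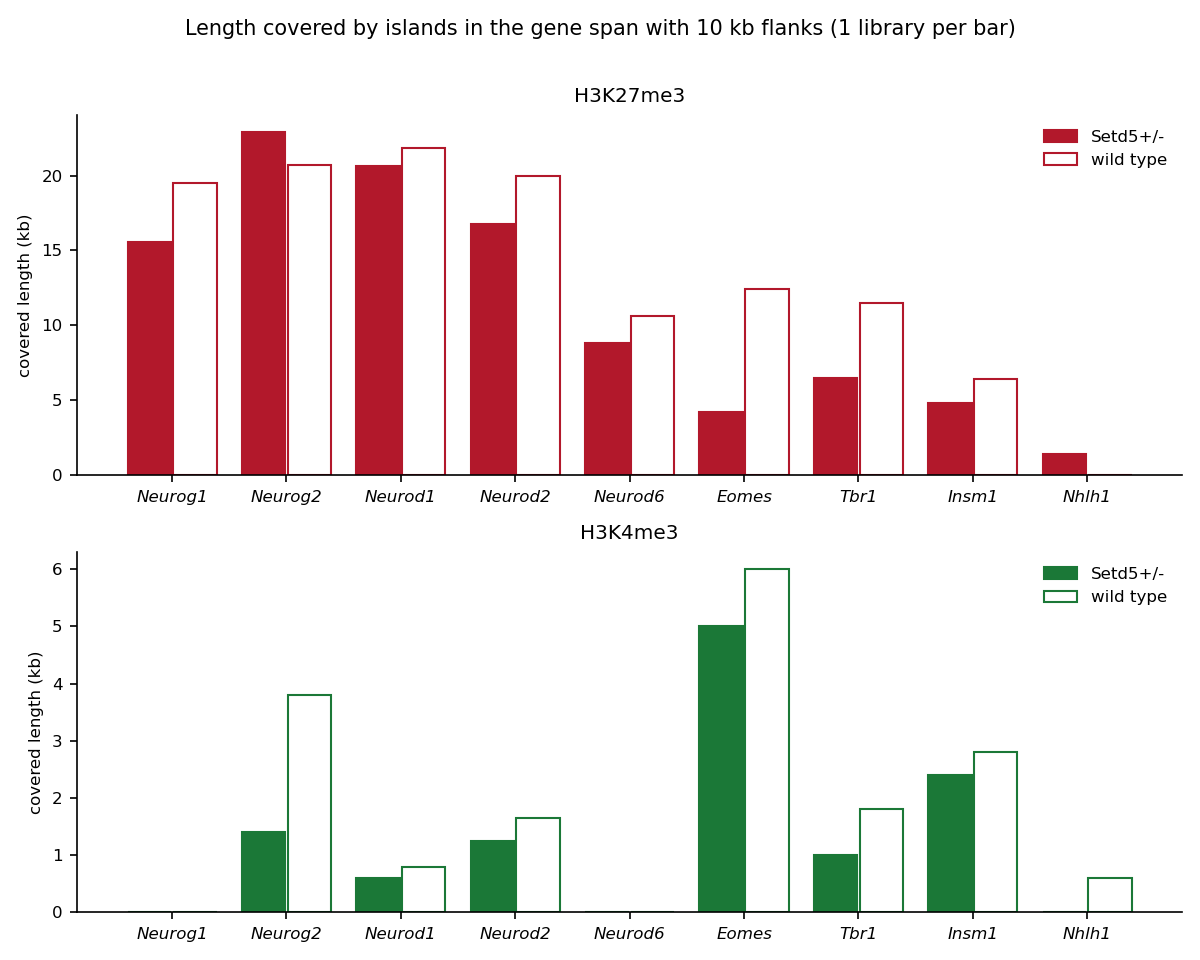
Length in kb covered by H3K27me3 (upper panel) and H3K4me3 (lower panel) islands in each gene's span with 10 kb flanks, with Setd5+/- as filled and wild type as open bars, 1 library each. H3K27me3 ranged from 1.4 kb at Nhlh1 to 22.9 kb at Neurog2 in Setd5+/- cells, and from 0 at Nhlh1 to 21.8 kb at Neurod1 in wild type.

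Over all 9 windows H3K27me3 covered 101.6 kb in Setd5+/- cells and 122.96 kb in wild type. The mean covered share of a window was 47.4% for the 9 genes in Setd5+/- cells, against 2.32% over all genes, and 56.4% in wild type, against 3.15% over all genes. It was shorter in Setd5+/- cells at 7 of the 9 genes and longer at Neurog2 and Nhlh1. Among all genes with the mark in either genotype it was shorter in Setd5+/- at 62.4% and longer at 35.9%, so the count for the 9 genes lies near that of the genome. The median length ratio over the 8 genes marked in both genotypes was 0.815, and over all genes marked in both it was 0.789. The 4 genes with the longest coverage were Neurog2, Neurod1, Neurod2 and Neurog1 in both genotypes. Of these, 2 in Setd5+/- cells and 4 in wild type had at least 80% of the window covered, as did 0.366% and 0.653% of all genes.

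Reads per covered kb were lower in Setd5+/- cells at 7 of the 8 genes with H3K27me3 in both genotypes, by log2 ratios from −0.96 at Neurod1 to −0.26 at Neurog2, and higher at Insm1 by 0.05. The median was −0.63, beside −0.19 over the 4783 wild-type islands shared on the 16 other autosomes. Relative to that median, 7 of the 8 genes were lower, beside 48.8% of all genes with the mark in both. Dense shared islands were set beside the 8 genes as well, in comparisons added with the values known. For the 25% of shared islands densest by the geometric mean of both genotypes the median was −0.51, and 6 of the 8 genes were below it. Taken by wild-type density alone, which itself favours low ratios, the median was −0.64, with 4 of the 8 genes below it. Taken by Setd5+/- density alone, which favours high ratios, it was −0.14, with 7 of the 8 genes below it. Scaled instead to all H3K27me3 island reads of each library the median over the 8 genes was 0.08, so its direction depended on the scaling. The share of island reads on the 16 autosomes that fell in the windows of the 8 genes lying there was 0.460% in Setd5+/- cells (95% Wilson interval 0.446 to 0.475) and 0.509% in wild type (0.498 to 0.521), intervals that cover counting error only.

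**Figure D3:**
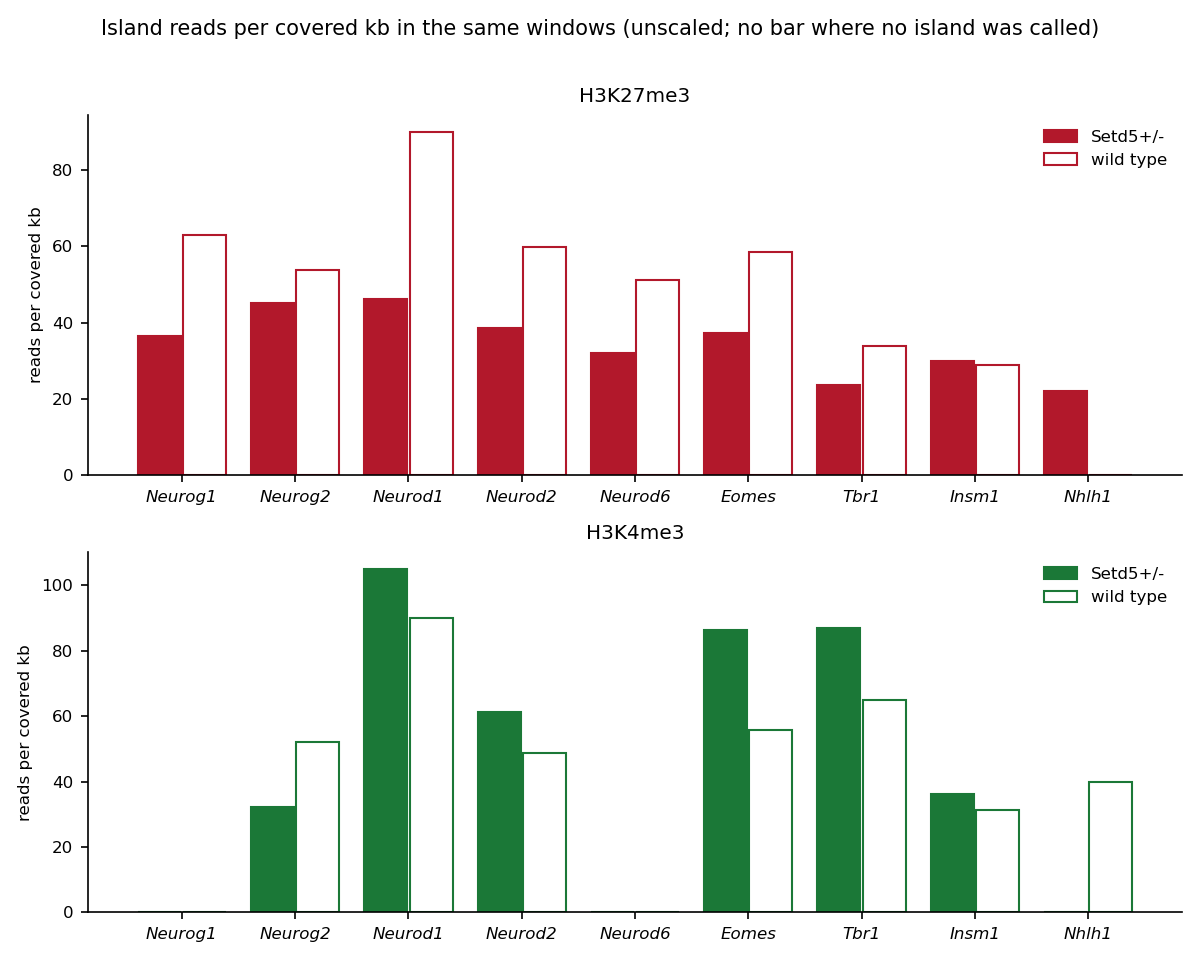
Island reads per covered kb, unscaled, for H3K27me3 (upper panel) and H3K4me3 (lower panel) in the 9 windows, with Setd5+/- as filled and wild type as open bars. For H3K27me3 the Setd5+/- bar was the lower of the pair at 7 of 8 genes, and for H3K4me3 it was the higher at 5 of 6. H3K4me3 islands covered less length in Setd5+/- cells at these genes, and only Eomes had more H3K4me3 reads in Setd5+/- cells.

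H3K4me3 was present in 6 of the 9 windows in Setd5+/- cells and 7 in wild type, beside 69.1% and 70.2% of all genes. It was shorter in Setd5+/- cells at all 7 genes with the mark, Neurog2, Neurod1, Neurod2, Eomes, Tbr1, Insm1 and Nhlh1, while 38.6% of all genes with the mark had it shorter and 47.6% longer. The total was 11.6 kb in Setd5+/- cells and 17.4 kb in wild type. With flanks of 5 kb, or without the 25% of islands with the lowest read density, 4 genes had shorter H3K4me3 and Eomes had slightly longer H3K4me3, so the count of 7 rests in part on islands that are of low density or far from the gene. Reads per kb relative to shared islands were higher in Setd5+/- cells at 5 of the 6 genes with the mark in both, with a median log2 ratio of 0.20, and lower at Neurog2, at −0.77. The relative density was lower at 52.1% of all genes with the mark in both. Density is taken over each library's own islands, which covered less in Setd5+/- cells at these genes. The unscaled reads were higher in Setd5+/- cells at Eomes alone, 432 against 334 in wild type. They were lower at Neurog2 (45 against 198), Tbr1 (87 against 117), Neurod1 (63 against 72), Neurod2 (76.5 against 80.4) and Insm1 (87 against 88). The Neurod2 value comes from the island inside Gm33099.

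Islands of H3K36me3, which marks transcribed gene bodies, were few at the 9 genes. So were those of H3K27ac, which marks active promoters and enhancers, and of H3K4me1, which marks enhancers. H3K36me3 touched none of the 9 spans in either genotype, beside 36.2% of all genes in Setd5+/- cells and 35.0% in wild type, and lay in 2 windows in each, beside 45.8% and 44.5%. No H3K36me2 island lay in any window, beside 6.62% and 5.72% of all genes. H3K27ac was found in 1 window in Setd5+/- cells and in 0 in wild type, beside 48.9% and 51.1%, and H3K4me1 in 0 in Setd5+/- cells and in 2 in wild type, beside 40.1% and 57.4%. SETD5-V5 was found in 1 window, in the flank of Nhlh1, beside 29.7% of all genes. The nearest SETD5-V5 island was 10.1 kb from Tbr1 and 15.1 kb from Neurog2, and it was 35.5 kb from Eomes and over 60 kb from the other 5 genes. The H3K27ac island nearest to each gene lay between 2.47 kb (Eomes) and 345 kb (Neurog1) away in Setd5+/- cells, with a median of 89.9 kb, and between 19.7 kb (Eomes) and 193 kb (Neurod6) away in wild type, with a median of 59.7 kb.

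**Figure D4:**
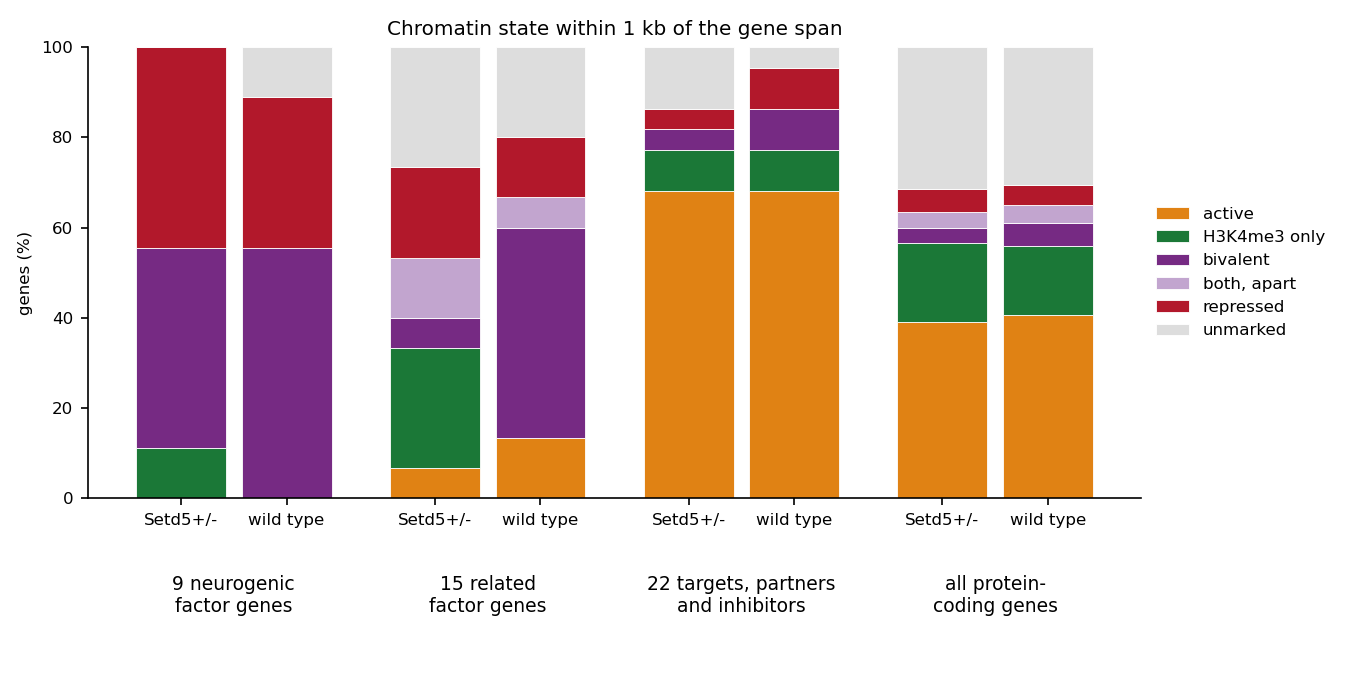
Share of genes in each chromatin state within 1 kb of the gene span, in percent, with Setd5+/- left of wild type in each pair. The 9 genes had no active member in either genotype, while 15 of the 22 targets, partners and inhibitors were active in each.

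Related factors outside the 9 were compared through a list of 15 helix-loop-helix, T-box and Insm genes. H3K27me3 lay within 1 kb of 6 of them in Setd5+/- cells and 10 in wild type. It was called in wild type only at Neurod4, Tbx21, Tbx2, Tbx5 and Insm2, and in Setd5+/- cells only at Neurog3. Over all genes, 32.5% of those with the mark in wild type had none in Setd5+/- cells. The longest such stretch was at Tbx2, 9.59 kb with 776 reads in wild type, where H3K4me3 had 321 reads in Setd5+/- cells and 178 in wild type. Tbx2, Tbx21 and Insm2 had the same pair of states as Tbr1. H3K4me3 was called in wild type only at Ptf1a and Tbx5, and H3K27ac in wild type only at Atoh7. Of the 8 genes of postmitotic neurons, 3 had H3K27me3 within 1 kb in Setd5+/- cells and 6 in wild type, and of 6 interneuron genes 2 had it in Setd5+/- cells and 5 in wild type.

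Among 22 targets, partners and inhibitors of these factors, 15 were active in each genotype, among them Hes1, Hes5, Btg2, Gadd45g and the E protein genes Tcf3 and Tcf12. H3K27ac was called in wild type only at the Notch ligand gene Dll1, with 176.5 reads in 4.93 kb, and in Setd5+/- cells only at Id1, an inhibitor of helix-loop-helix factors, with 59.8 reads in 2.55 kb. H3K27me3 was called in wild type only at Unc5d, which also had H3K4me3 in wild type only, and at Cdkn1c. Id4 was bivalent in both genotypes, and Dcx of migrating neurons, on chromosome X, was repressed in both. Chromosome X held 11.7% of H3K27me3 island reads in Setd5+/- cells and 25.3% in wild type, and its part in the Dcx call was not tested. Dcx is also among the genes of postmitotic neurons counted above.

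The mean profile of the 9 genes lay closer to some other genes than to any of the 9. This was likely in advance, since the 9 differ widely and the search ran over the other protein-coding genes. The mean cover was 47.4% in Setd5+/- cells and 56.4% in wild type for H3K27me3, and at most 7.61% for any other mark. Nearness here thus means mostly similar H3K27me3 cover. Profiles were compared as the root mean square difference, over the 12 histone mark lists, of the covered percent of each window from the mean of the 9. Mpzl3 was nearest to that mean at 2.23 percentage points, followed by Gdf6 at 2.54, Gfy at 2.87, Jaml at 2.89 and Foxl1 at 2.93. Of the 9 genes themselves, Neurod6 was nearest at 5.38 and Nhlh1 farthest at 20.6. Mpzl3 and Gdf6 were bivalent and the other 3 repressed in both genotypes.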

How the data were processed

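ChIP-seq islands of 13 libraries were used: H3K4me3, H3K27ac, H3K27me3, H3K4me1, H3K36me2 and H3K36me3 in both genotypes, and SETD5-V5 (wild type). No input library (3 in all) was used here. The submitters' processing notes name FastQC, Bowtie2 2.2.3 and SICER 1.1, and GRCm38 (mm10). SICER windows were 800 bp with 2400 bp gaps and FDR 0.01 for SETD5-V5 and the H3K36 marks, per the file headers. Settings of the other lists, and any use of inputs as controls, were not given in the sources used here. The deposited integers were taken, from their values, as unscaled counts of reads in each island.

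Island positions were converted to 1-based coordinates. Reads of an island that crosses the edge of a window were allotted in proportion to the length inside. Fold changes are log2 ratios of reads per kb, set beside the median over shared islands on autosomes other than 1, 4 and 15. Intervals are 95% exact Poisson or Wilson intervals from scipy 1.17.1, describe counting error alone and leave out variation between libraries. They may be too narrow even for counting error, because amplified reads are not independent molecules. Python 3.11.15, numpy 2.4.6, pandas 2.3.3 and matplotlib 3.10.9 were used. State calls and covered lengths were tested on simulated islands. RefSeq genes and promoters of GRCm38.p6 gave spans, starts and sequences, and Insm1 has no promoter there. The genes and lists were chosen with earlier results of these data known. Named genes were the 9 genes, genes in their windows, members of both related lists marked in 1 genotype only, and the 5 nearest profiles. Id4, Dcx, Aqp4, Aldh1l1 and the examples of active genes were named with their values known.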

Additional observations from a re-analysis of the deposited data

How the results depend on the processing

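No paired analysis was possible because each group has 1 library and no test was made, and leaving out a replicate was likewise not possible. The count of active genes was 0 in each genotype under all 8 alternatives for the state, and the count of genes with shorter H3K27me3 was 6 or 7 under the alternatives for length. Within 1 kb of the start, bivalent genes numbered 2 in Setd5+/- and 3 in wild type and the state differed at 1 gene, out of the 8 genes with an annotated start; Neurod1 lost its call in both genotypes, and Insm1, bivalent otherwise, was not assessed. They numbered 2 in Setd5+/- without the 25% of islands with the lowest read density, and 3 in wild type when 50% of the shorter island had to be shared. The summed H3K27me3 difference of −21.3 kb was −17.6 kb at equal covered length, −15.3 kb with 5 kb flanks and −11.3 kb with 25 kb flanks, where the read ratio of 0.541 was 0.605. For all H3K27me3 island reads on the 16 other autosomes the ratio, Setd5+/- over wild type, was 0.594. The median H3K27me3 log2 density relative to shared islands, −0.45, was −0.36 at equal covered length, −0.59 with 5 kb flanks and −0.35 with 25 kb flanks. It turned to 0.082 when scaled to all island reads of each library and, chosen after seeing the data, to 0.12 scaled to the 16 other autosomes. Against the densest 25% of shared islands, also chosen after seeing the data, it was −0.12 when these were taken by both genotypes, −0.49 by Setd5+/- density and 0.0032 by wild-type density, a choice that lowers the islands' own ratios. Chromosome X held 11.7% of H3K27me3 island reads in Setd5+/- and 25.3% in wild type, and its part in this was not tested. The summed H3K4me3 difference of −5.8 kb was −5.0 kb without the least dense 25% and −2.6 kb with 5 kb flanks, and both settings gave 4 genes with shorter H3K4me3. The H3K4me3 read ratio of 0.865 was 0.986 with 5 kb flanks and turned to 1.08 with 25 kb flanks. The median H3K4me3 log2 density of 0.20 was 0.32 without the least dense 25%, 0.15 and 0.35 with 5 and 25 kb flanks, 0.15 scaled to all island reads, and 0.25 and 0.30 against islands dense in both genotypes and in wild type. Turned directions of single genes were 2.8 kb for Neurod6 H3K27me3 with 25 kb flanks, 0.2 kb for Eomes H3K4me3 with 5 kb flanks and without the least dense 25%, and 0.2 kb for Nhlh1 H3K4me3 with 25 kb flanks. Off chromosomes 1, 4, 15, X and Y, 2.80% of genes were bivalent in Setd5+/- and 4.67% in wild type, 4.12% and 3.70% were repressed, and the state differed at 18.7%.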
